A study of Mus musculus with 6 samples.

Results

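The genes described here encode the core proteins of the spliceosome, the machine that removes introns from pre-mRNA. They were taken as all protein-coding rows of the deposited count table whose gene name begins with Snrp, Snrnp, Prpf, Sf3a or Sf3b, a rule that uses no measured value. It found 41 of the 21970 protein-coding rows and of 56748 rows in all. Of these members, 40 passed the filter on low counts and were tested. Snrpn, which encodes SmN, a close relative of SmB best known from the nervous system, had 0 counts in each of the 6 libraries. In the least deeply sequenced library, 0 counts allow up to 0.114 CPM (counts scaled to library size), for counting error only. This bound is scaled by total counts alone, without the TMM scaling for library composition that the other CPM given here carry. That bound does not cover reads shared with other genes. Snrpn overlaps 3 other rows (Gm38393, Snurf and Gm18908), and how such reads were counted is not stated, so 0 counts may not mean no transcript.

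Bulk RNA sequencing compared mouse MLL-AF9 leukemia cells labelled with genotype Rbm5 KO or Rbm5 WT. Each group has 3 libraries, numbered 31, 32 and 40 (KO) and 25, 27 and 29 (WT). Both groups carry MLL-AF9, the fusion oncogene that drives this myeloid leukemia, and the labels give bone marrow as the tissue, whole bone marrow as the cell type and MLL-AF9 as the cell line. One protocol speaks of whole bone marrow and another of cultured cells. The age and strain of the mice, how Rbm5 was deleted and the clonality of the leukemia are not stated in the sources used here. The series asked how RBM5, an RNA-binding protein that acts in splicing, governs the self-renewal program of this leukemia.

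A few facts of the libraries bear on every comparison below. Total counts ran from 26359299 to 31807588. Rbm5 was not lower in the libraries labelled KO (205 ± 28.1 CPM in WT and 260.4 ± 13.1 CPM in KO, SD, n = 3 each, log2 fold change 0.34, edgeR adjusted p = 0.107), so KO and WT are used below for the labels alone, and a direction holds only as far as the labels do. Counts of 4 Y-linked genes (Uty, Kdm5d, Eif2s3y and Ddx3y) summed to 0 in each WT library and to 6899, 6961 and 7358 in the KO libraries, so sex and the label cannot be told apart. Xist, the RNA of the inactive X chromosome, stood at 1269 to 1625 CPM in WT and at 13.0, 192.2 and 32.5 CPM in KO libraries 31, 32 and 40, so KO library 32 held Y-linked counts and the highest Xist of its group. Markers of the myeloid cells of this leukemia (Kit, Mpo, Elane, Cd34, Hoxa9, Meis1, Itgam and Flt3) were present in every library. By edgeR, 1 of the 8 was higher in KO (Itgam) and 1 lower (Hoxa9), and 5 of the 8 had a log2 fold change below 0. Markers of mature neutrophils were called higher in KO by edgeR for 9 of 13 genes and by DESeq2 for 12. Of the 13, 0 had a log2 fold change below 0, and their summed level was 653 to 2438 CPM in WT and 9649 to 17174 CPM in KO. Of 10 monocyte and macrophage markers, edgeR called 3 higher, DESeq2 called 5, and 0 had a log2 fold change below 0. Their summed levels were 972 to 1522 CPM in WT and 2674 to 4729 CPM in KO. Erythroid markers summed to 1.46 to 2.91 CPM in WT and 3.55 to 5.47 CPM in KO, and of the 4 tested Hbb-bs was higher in KO. Markers of T and NK cells summed to 1.15 to 1.71 CPM in WT and 2.22 to 6.03 CPM in KO, with 0 of 4 tested called by edgeR, 2 with an unadjusted p under 0.05, and 1 of the 8 listed called by DESeq2. B cell markers summed to 9.50 to 29.1 CPM in WT and 9.56 to 29.5 CPM in KO. Of 12 proliferation markers, 0 were called by edgeR and by DESeq2, 2 had an unadjusted p under 0.05 and the median log2 fold change was 0.00. The part of these cell type markers and of sex in the results below was not tested, and in bulk RNA fewer cells of a type and less RNA per cell cannot be told apart.

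As background, each spliceosomal snRNP (small nuclear ribonucleoprotein) is built on a ring of 7 Sm proteins that closes around a small nuclear RNA. U1 binds the 5′ splice site and U2 the branch point. The tri-snRNP of U4, U6 and U5 then joins, U4 is unwound from U6, and the Prp19 complex helps to form the active site. A separate minor spliceosome with its own snRNPs removes a rare class of introns. RBM5 is found in early spliceosomal complexes, and its OCRE domain binds the proline-rich tails of SmB and SmN, the products of Snrpb and Snrpn.

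Snrnp70, Snrpf, Prpf31 and Prpf40b fell in KO and no member rose. The Sm ring genes all lay below 0, with Snrpb nearest to it. The large scaffold, helicase and branch-site genes Prpf8, Snrnp200 and Sf3b1 stood slightly above 0 without passing the test. Prpf3 had the largest positive value. By edgeR's quasi-likelihood test with Benjamini-Hochberg adjustment over all 15963 genes tested, 4 of 40 members were lower and 0 higher, where 3.12% of all genes tested were lower and 5.45% higher. At an unadjusted p under 0.05, 11 members were lower and 1 was higher, beside 12.4% and 14.5% of all genes tested, and DESeq2 called 5 lower and 0 higher, where it called 5.77% of the genes it gave an adjusted p lower and 8.51% higher. Groups did not overlap for 12 members that were lower in KO and 1 that was higher, where the shares over all genes tested were 16.5% and 17.2%. Of the 40 members, 31 had a log2 fold change (KO minus WT throughout) below 0, and the median was -0.15, beside 51.2% below 0 and a median of -0.01 over all genes tested. The median was -0.08 without WT library 29 and -0.07 against WT library 25 alone.

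**Figure D1:**
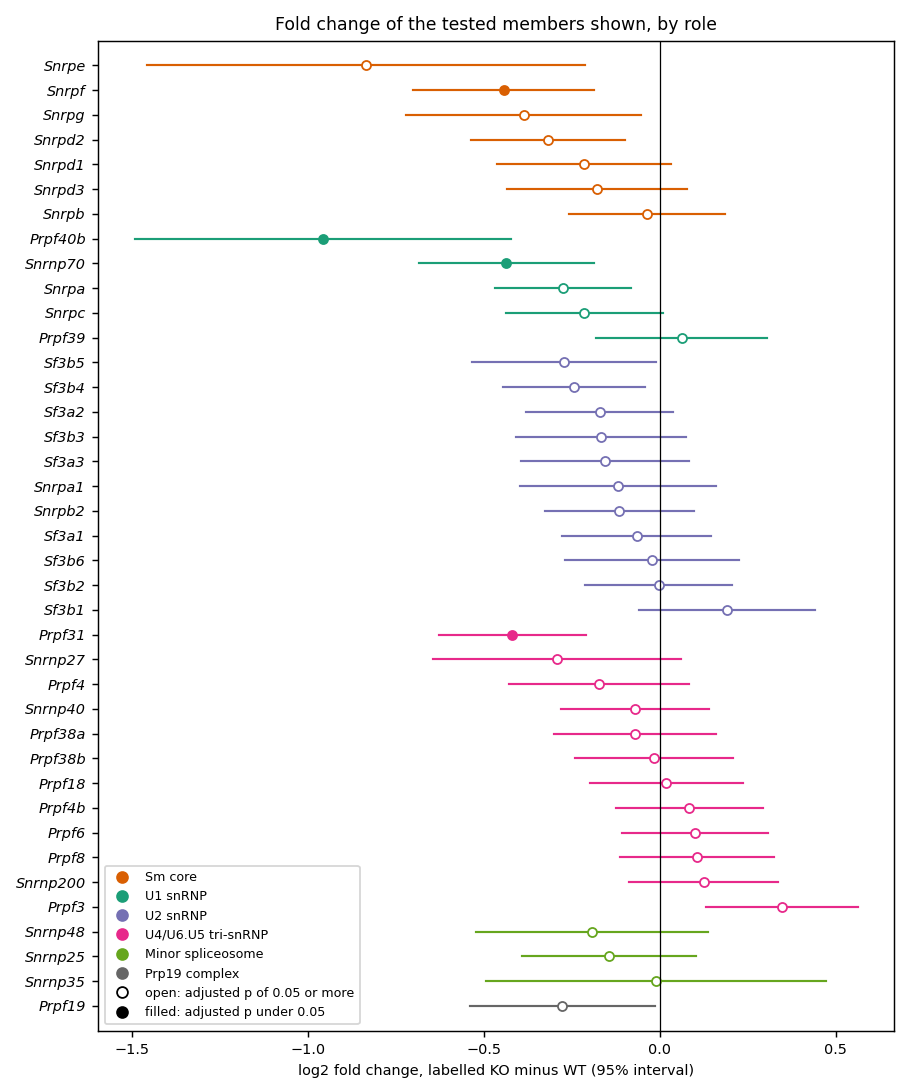
Log2 fold change of 39 tested members, labelled KO minus WT, with its 95% interval from edgeR, grouped and colored by role. Filled points mark the 4 members with an adjusted p under 0.05, all to the left of 0, and 31 of the 39 points lie below 0.

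Few of the calls held when a library was left out. With 1 library left out, the number of members called lower was 0 without WT library 25, WT library 29 or KO library 31, 1 without WT library 27 (Prpf31) or KO library 40 (Snrpe), and 2 without KO library 32 (Prpf40b and Snrnp70). It was 0 against WT library 25 alone, an arm of 1 library assumed to vary like the others. Across all genes the number called in either direction fell from 1368 to between 347 and 1227 in the same fits with 1 library left out. Scaling by total counts alone, which put the median of all genes at -0.13, called 8 members lower and 0 higher. Over all genes tested, that scaling called 682 lower (4.27%) and 597 higher (3.74%), where TMM scaling called 498 and 870.

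Read as a share of each library, the members together took 0.560% to 0.565% of all counts in WT and 0.467% to 0.514% in KO. After TMM scaling, which takes out differences in library composition, the members summed to 5281, 5281 and 5625 CPM in WT libraries 25, 27 and 29 and to 5105, 5177 and 5151 CPM in KO libraries 31, 32 and 40. The groups did not overlap on either measure, but on the second they lay close together. KO library 40 held the lowest value of 18 of the 40 members, KO libraries 31 and 32 of 8 each, and WT libraries 25, 27 and 29 of 3, 2 and 1.

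**Figure D2:**
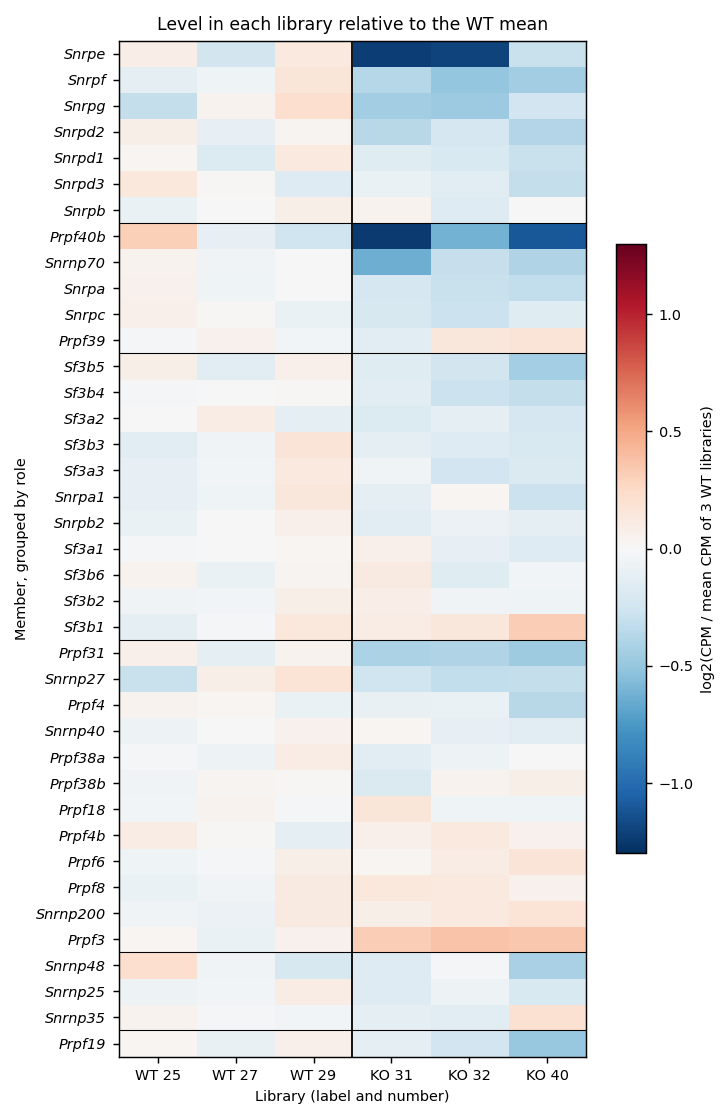
Level of 39 tested members in each library, as the log2 ratio of the TMM-scaled CPM to the mean of the 3 WT libraries, with members in rows grouped by role and libraries in columns. Blue marks levels under the WT mean and red marks levels above it, and the Sm ring and U1 rows at the top are mostly blue in the 3 KO columns.

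The promoters of the 4 members that fell, and of Prpf3, which had the largest positive value, are shown because the series names the transcription factor MYC, whose E-box motif can be looked for in them. Each is the 250 bases before the annotated start, 5′ to 3′ on the gene's strand, from RefSeq on GRCm38.p6. Capitals mark an E-box, which reads CACGTG on both strands. They also mark the CCAAT box, which appears as ATTGG where it lies on the opposite strand. The last motif marked is of ETS type. Its letters are CCGGAAG, and on the opposite strand they appear as CTTCCGG. No motif marked here overlaps another. The windows lie at chr10:93589659-93589908 (Snrpf, minus strand), chr7:45395743-45395992 (Snrnp70, minus strand), chr7:3629735-3629984 (Prpf31, plus strand), chr15:99294991-99295240 (Prpf40b, plus strand, the first of 2 annotated starts) and chr3:95855754-95856003 (Prpf3, minus strand, 1 of 2 overlapping windows).
Snrpf: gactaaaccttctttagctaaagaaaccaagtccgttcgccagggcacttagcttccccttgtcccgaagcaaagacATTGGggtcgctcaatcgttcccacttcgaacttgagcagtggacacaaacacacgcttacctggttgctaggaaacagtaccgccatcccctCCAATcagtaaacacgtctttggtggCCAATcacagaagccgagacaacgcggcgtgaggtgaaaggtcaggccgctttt
Snrnp70: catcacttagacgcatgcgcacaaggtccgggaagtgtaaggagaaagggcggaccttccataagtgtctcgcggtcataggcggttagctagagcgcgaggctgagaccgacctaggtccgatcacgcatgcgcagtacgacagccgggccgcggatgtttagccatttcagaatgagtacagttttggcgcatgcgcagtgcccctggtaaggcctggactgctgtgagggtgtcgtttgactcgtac
Prpf31: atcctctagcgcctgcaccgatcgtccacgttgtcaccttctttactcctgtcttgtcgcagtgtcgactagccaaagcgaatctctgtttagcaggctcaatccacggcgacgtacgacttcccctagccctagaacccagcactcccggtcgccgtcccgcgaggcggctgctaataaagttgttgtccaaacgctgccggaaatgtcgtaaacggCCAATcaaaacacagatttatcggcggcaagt
Prpf40b: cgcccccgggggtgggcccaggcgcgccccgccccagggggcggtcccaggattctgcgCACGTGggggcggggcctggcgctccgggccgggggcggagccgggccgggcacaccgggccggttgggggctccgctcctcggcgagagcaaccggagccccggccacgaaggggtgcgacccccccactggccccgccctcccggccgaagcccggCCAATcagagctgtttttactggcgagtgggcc
Prpf3: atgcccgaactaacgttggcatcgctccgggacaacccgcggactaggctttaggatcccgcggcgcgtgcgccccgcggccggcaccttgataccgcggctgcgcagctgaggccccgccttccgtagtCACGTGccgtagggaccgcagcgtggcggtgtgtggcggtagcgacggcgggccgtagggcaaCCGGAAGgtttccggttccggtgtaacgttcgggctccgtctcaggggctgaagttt

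None of the 3 motifs was in all 4 promoters of the members that fell. Prpf40b held 1 E-box and 1 CCAAT box, Snrpf 3 CCAAT boxes, Prpf31 1 CCAAT box, and Snrnp70 none of the 3 motifs. Prpf3 held 1 E-box and 1 ETS-type motif. These are the windows shown. The other Prpf3 window held 0 E-boxes, 0 CCAAT boxes and 0 ETS-type motifs, and the other Prpf40b window held 0 E-boxes and 1 CCAAT box. Over 42 windows of the 34 members found in the RefSeq table, 5 windows (11.9%) held an E-box, beside 8.16% of 12739 windows of tested protein-coding genes and 6.02% of all 32851 windows. CCAAT boxes were in 38.1% of member windows, beside 35.6% and 33.8%. The ETS-type motif was in 15 member windows (35.7%), beside 13.3% and 6.91%, and the member genes that held it include Sf3a1, Sf3a2, Sf3a3, Sf3b2, Sf3b3, Snrpc, Snrpg, Snrnp200 and Prpf19. These matches describe letters in a window and say nothing about binding, and the 3 motifs were chosen with the values of the members known.

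Of the 7 Sm ring genes, Snrpf fell, and the other 6 had values below 0 without passing the test. Snrpf, which encodes SmF, stood at 42.8, 44.9 and 51.8 CPM in WT libraries 25, 27 and 29 and at 35.9, 32.7 and 34.0 CPM in KO libraries 31, 32 and 40. Every KO library lay below every WT library, and the log2 fold change was -0.44 ± 0.11 (SE, edgeR adjusted p = 0.0484). It lost its call in each fit with 1 library left out, with adjusted p from 0.0693 (without WT library 25) to 0.143 (without KO library 40), and also with RLE factors, limma-voom and the fit without robust shrinkage. The gene (ENSMUSG00000020018) lies on chromosome 10 from 93418891 to 93425568 on the minus strand, and Ccdc38 and 4933408J17Rik overlap it on the other strand. This position and those that follow are as the table gives them, and the table names no build. They differ from the GRCm38.p6 positions of the windows above, so these coordinates and those of the windows cannot be set against each other.

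Snrpe, which encodes SmE, SmF's neighbor in the ring, had the second-lowest value of the 40 members but did not pass the test. It stood at 59.8, 47.7 and 61.5 CPM in WT and at 24.1, 24.5 and 46.1 CPM in KO. KO libraries 31 and 32 lay far below every WT library, while KO library 40 lay just under the lowest WT library. The log2 fold change was -0.84 ± 0.27 (SE, edgeR adjusted p = 0.0988). Without KO library 40 it was -1.21 with an adjusted p of 0.0157, the only member called in that fit, and DESeq2 and total-count scaling also called it. Snrpe lies on chromosome 1 (133531609 to 133538029, minus strand), and no other gene of the table overlaps it.

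Snrpg, which encodes SmG, the partner of SmE and SmF in an assembly intermediate, stood at 59.8, 76.5 and 86.8 CPM in WT and at 54.2, 53.7 and 62.7 CPM in KO. WT library 25 lay below KO library 40, so the groups overlapped. The log2 fold change was -0.39 ± 0.15 (SE, edgeR adjusted p = 0.137). Snrpg lies on chromosome 6, where the median log2 fold change of 393 genes with at least 16 CPM was -0.26, beside 0.01 over 8262 such genes on all chromosomes. The other member on chromosome 6, Snrnp27, which encodes a protein of the tri-snRNP, showed the same spread in WT, with 19.3 CPM in library 25 and 25.04 and 26.7 CPM in libraries 27 and 29. Its KO libraries stood at 19.8, 19.0 and 19.2 CPM (log2 fold change -0.29, edgeR adjusted p = 0.263). For both genes WT libraries 27 and 29 were the high ones, and WT library 25 was level with KO for Snrnp27 and inside the KO range for Snrpg.

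The D proteins and SmB lay nearer to 0. Snrpd2 (SmD2) stood at 89.7, 79.0 and 87.3 CPM in WT and at 66.6, 73.2 and 65.6 CPM in KO, with no overlap (log2 fold change -0.32 ± 0.09, SE, edgeR adjusted p = 0.0766). Snrpd1 (SmD1), the partner of SmD2, stood at 62.7, 54.3 and 67.2 CPM in WT and at 55.1, 53.4 and 50.1 CPM in KO, where KO library 31 lay above WT library 27. Snrpd3 (SmD3), the partner of SmB, stood at 82.4, 75.9 and 66.8 CPM in WT and at 70.7, 67.7 and 60.5 CPM in KO, and its groups overlapped. On the log2 scale they differed by -0.22 and -0.18 (adjusted p by edgeR 0.244 and 0.343). Snrpb stood at 218.6, 232.4 and 245.5 CPM in WT and at 240.1, 206.7 and 232.1 CPM in KO. Its log2 fold change was -0.04 with a 95% interval of -0.26 to 0.18 (edgeR adjusted p = 0.847). The median of the 7 ring genes was -0.32.

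**Figure D3:**
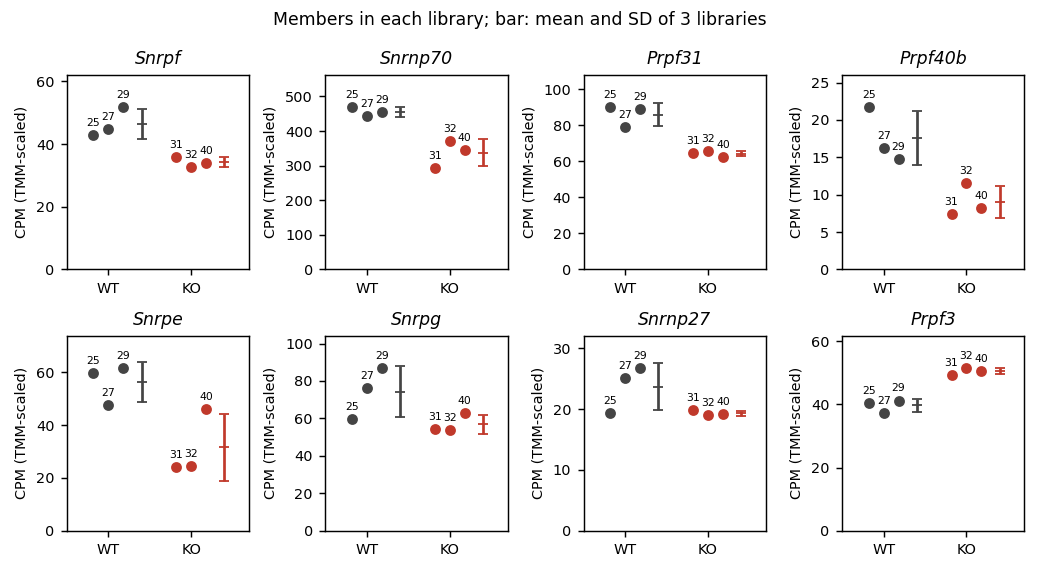
TMM-scaled CPM of 8 members in each library (points, numbered by library, on axes from 0), with the mean and SD of the 3 libraries of a group beside them. Snrpf, Snrnp70, Prpf31 and Prpf40b, the members that fell, show no overlap, Snrpe splits KO libraries 31 and 32 from 40, Snrpg and Snrnp27 split WT library 25 from 27 and 29, and Prpf3 is the one member whose KO libraries all lie above WT.

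Although the ring holds 1 copy of each Sm protein, the mRNA levels were unequal when set per kilobase of gene length (CPM per kb). In WT, Snrpb stood highest at 125.5 ± 7.26 CPM per kb (SD, n = 3). Snrpf followed at 54.0 ± 5.49, Snrpg at 47.3 ± 8.68 and Snrpe at 41.1 ± 5.45 CPM per kb. From Snrpf to Snrpe, neighbors in this order overlapped within 1 SD. Snrpd2 stood at 32.6 ± 2.15, Snrpd1 at 29.9 ± 3.19 and Snrpd3 at 21.8 ± 2.28 CPM per kb. Of these 3, Snrpd2 and Snrpd1 overlapped within 1 SD and Snrpd3 lay lower. In KO, Snrpe stood at 23.0 ± 9.19 CPM per kb, a spread that held the means of Snrpd2 and Snrpd1 (26.1 and 25.8 CPM per kb). The length column of the table sets these levels, and the sources used here do not state how it was made. Small Sm genes have processed copies elsewhere in the genome, and how the counting split reads among such copies is not stated either.

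Among genes of the U1 snRNP, Snrnp70 and Prpf40b fell and the remaining 4 did not pass the test (median -0.24). Snrnp70, which encodes U1-70K, the U1 protein that many splicing regulators contact, was the most abundant U1 member at 59.8 ± 1.78 CPM per kb in WT (SD, n = 3). It stood at 469.3, 442.2 and 454.3 CPM in WT and at 293.6, 369.8 and 346.5 CPM in KO. KO library 31 was the lowest, and the groups did not overlap. The log2 fold change was -0.44 ± 0.11 (SE, edgeR adjusted p = 0.0457), and the call held in 1 of 6 fits with 1 library left out (without KO library 32, adjusted p = 0.0475), with a highest adjusted p of 0.121 without KO library 40. The fit without robust shrinkage also lost it. Snrnp70 (ENSMUSG00000063511) lies on chromosome 7 from 45025877 to 45045166 on the minus strand, and a snoRNA row lies within it on the other strand.

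Prpf40b, which encodes a relative of the yeast U1 factor Prp40 that bridges the splice sites, had the lowest log2 fold change of all members at -0.96 ± 0.23 (SE, edgeR adjusted p = 0.0439). It stood at 21.7, 16.3 and 14.7 CPM in WT and at 7.44, 11.5 and 8.21 CPM in KO, so that the KO mean was 51.5% of the WT mean and the groups did not overlap. The call held in 1 of 6 fits with 1 library left out (without KO library 32, adjusted p = 0.0329), with a highest adjusted p of 0.145 without KO library 40. Prpf40b was also the U1 member of lowest level, at 3.55 ± 0.741 CPM per kb in WT. Prpf40b (ENSMUSG00000023007) lies on chromosome 15 from 99192968 to 99214899 on the plus strand, and Fam186b overlaps it on the other strand.

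The other U1 genes lay nearer to 0. Snrpa, which encodes the A protein of U1, stood at 92.9 ± 3.48 CPM in WT and 76.8 ± 2.75 CPM in KO (SD, n = 3 each) with no overlap (log2 fold change -0.27, edgeR adjusted p = 0.0817). Snrpc, which encodes the C protein of U1, which steadies pairing with the 5′ splice site, stood at 48.0 ± 2.44 and 41.4 ± 1.86 CPM, also without overlap (log2 fold change -0.21, edgeR adjusted p = 0.202). Prpf39, a further U1-associated factor, stood at 103.2 ± 3.48 and 107.7 ± 12.8 CPM (log2 fold change 0.06, edgeR adjusted p = 0.752).

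No gene of the U2 snRNP passed the test by edgeR or by DESeq2. An unadjusted p under 0.05 was found for 2 of 11, beside 12.4% lower and 14.5% higher of all genes tested. Of the 11, 10 had values below 0 (median -0.12, range -0.27 to 0.19), beside 51.2% of all genes tested. The member above 0 was Sf3b1, which encodes the large SF3B subunit that holds the branch point and is often mutated in myeloid neoplasms. Sf3b1 stood at 518.7, 557.2 and 621.7 CPM in WT and at 606.6, 626.3 and 705.9 CPM in KO, with WT library 29 inside the KO range (log2 fold change 0.19, 95% interval -0.06 to 0.44, edgeR adjusted p = 0.302). Smaller SF3B subunits had values below 0. Sf3b5 stood at 63.8 ± 5.36 CPM in WT and 52.8 ± 5.35 CPM in KO (log2 fold change -0.27, edgeR adjusted p = 0.171), and Sf3b4, a subunit that contacts RNA near the branch point, at 73.8 ± 0.899 and 62.3 ± 3.66 CPM (log2 fold change -0.24, edgeR adjusted p = 0.122). Both showed no overlap between groups. Sf3b2, a further large subunit, stood at 348.9 ± 17.4 and 348.2 ± 19.2 CPM, a difference far smaller than the spread between libraries.

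The SF3A genes and the proteins specific to U2 lay close to 0. Sf3a2, which encodes a subunit of the complex that matures U2, stood at 115.5 ± 8.47 CPM in WT and 102.6 ± 3.67 CPM in KO without overlap (log2 fold change -0.17, edgeR adjusted p = 0.267). Sf3a1 and Sf3a3 overlapped between groups. Snrpa1 and Snrpb2, which encode a pair of U2 proteins that bind each other, stood at -0.12 and -0.11 on the log2 scale (adjusted p by edgeR 0.579 and 0.469). Sf3b3 had -0.17 (adjusted p = 0.349), from 418 ± 47.2 to 372.5 ± 9.66 CPM.

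In the tri-snRNP and the factors that act with it, 1 of 12 members fell and 6 of 12 had values below 0 (median 0.00). Prpf31, which encodes the protein that ties U4 and U6 to U5 and is known for its link to retinal degeneration, stood at 90.1, 78.8 and 88.8 CPM in WT and at 64.8, 65.4 and 62.5 CPM in KO. The KO libraries lay within 3 CPM of each other and below every WT library. The log2 fold change was -0.42 ± 0.09 (SE, edgeR adjusted p = 0.0323, the smallest of the members). Without WT library 27 it kept its call (adjusted p = 0.0440), and it lost it in the other 5 fits with 1 library left out, reaching 0.108 without KO library 40. Prpf31 (ENSMUSG00000008373) lies on chromosome 7 from 3632984 to 3645485 on the plus strand, and a lncRNA row overlaps it on the other strand.

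Prpf3, which encodes a U4/U6 protein that works beside the product of Prpf31, had a value of the opposite sign and did not pass the test. It stood at 40.4, 37.4 and 41.2 CPM in WT and at 49.4, 51.4 and 50.7 CPM in KO, the only member whose KO libraries all lay above WT. Its log2 fold change was 0.35 ± 0.09 (SE, 95% interval 0.13 to 0.56, edgeR adjusted p = 0.0598), and it was positive in each of the 15 alternative fits. Prpf4, the direct partner of PRPF3, stood at 47.6 ± 2.31 and 42.2 ± 4.33 CPM (log2 fold change -0.17, edgeR adjusted p = 0.356).

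The genes of the large U5 proteins among the members lay above 0 within the spread of the libraries. Eftud2, which encodes the U5 GTPase and falls outside the naming rule, lay below 0 (log2 fold change -0.28, described below). Prpf8, which encodes the scaffold of the active site, stood at 483.9, 499.2 and 558.6 CPM in WT and at 563.3, 560.6 and 535.2 CPM in KO (log2 fold change 0.11, 95% interval -0.11 to 0.32). Snrnp200, which encodes the helicase that unwinds U4 from U6, stood at 266.7, 259.8 and 296.8 CPM in WT and at 288.6, 299.0 and 310.1 CPM in KO (log2 fold change 0.12, 95% interval -0.09 to 0.34). Their edgeR adjusted p were 0.518 and 0.423, and in both genes WT library 29 lay inside the KO range. Prpf6, a bridge within the tri-snRNP, had 0.10, Prpf4b, a kinase of the complex, 0.08, and Snrnp40, a U5 protein, -0.07 as log2 fold changes (edgeR adjusted p = 0.521, 0.599 and 0.662). Prpf18, a factor of the second step of splicing, and Prpf38a and Prpf38b, which join before activation, overlapped between groups. With total-count scaling the values of Prpf8, Prpf6 and Prpf4b turned negative (-0.01, -0.02 and -0.04), while those of Snrnp200, Sf3b1 and Prpf3 did not.

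**Figure D4:**
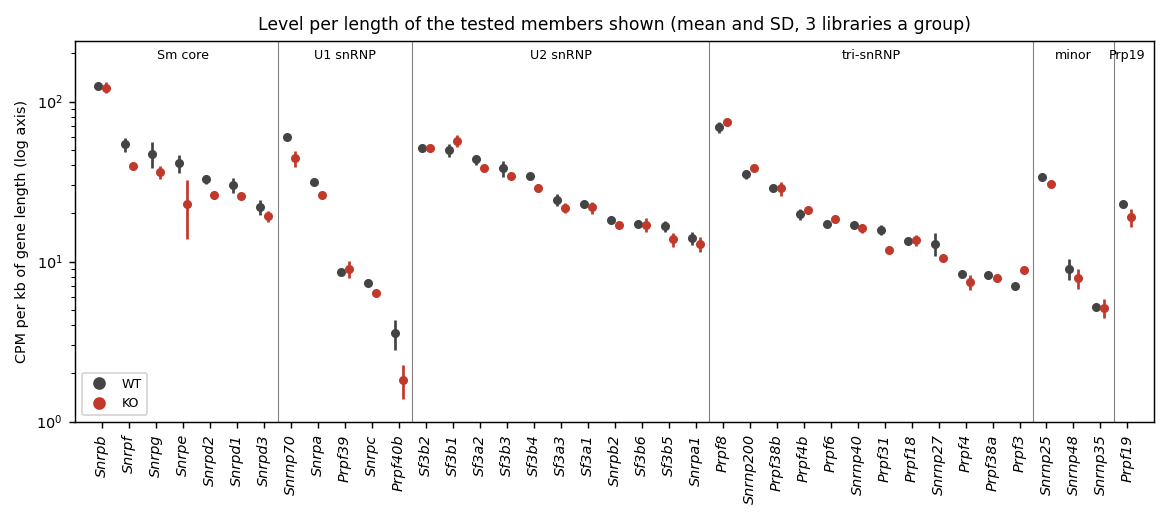
Level of 39 tested members as TMM-scaled CPM per kilobase of the deposited gene length (log axis), mean and SD of the 3 WT libraries (grey) and the 3 KO libraries (red), ordered within each role by the WT mean. Snrpb leads the Sm ring genes at 125.5 CPM per kb, Prpf8 the tri-snRNP genes, and Prpf40b, at 3.55 CPM per kb in WT, is the lowest of those plotted.

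Of the 3 genes of the minor spliceosome, 0 passed the test by edgeR or DESeq2 and 0 had an unadjusted p under 0.05. Snrnp48, which encodes a protein at the minor 5′ splice site, stood at 105.6, 88.2 and 78.8 CPM in WT and at 81.0, 90.02 and 67.6 CPM in KO, with overlapping groups (log2 fold change -0.19, edgeR adjusted p = 0.430). Snrnp25 and Snrnp35, which encode further proteins of the minor snRNPs, differed by -0.14 and -0.01 on the log2 scale (adjusted p by edgeR 0.433 and 0.982). Snrnp35, at 6.98 ± 0.202 CPM in WT and 6.93 ± 0.935 CPM in KO, had the lowest CPM of the tested members.

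Prpf19, which encodes the ubiquitin ligase at the heart of the Prp19 complex, stood at 169.5, 156.1 and 175.0 CPM in WT and at 154.2, 140.6 and 118.3 CPM in KO. KO library 40 was the lowest, and KO library 31 lay just under WT library 27. Its log2 fold change was -0.28 ± 0.11 (SE, edgeR adjusted p = 0.168).

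Gene length and log2 fold change were positively related across members. Over the 40 members, which are not independent replicates and share the same libraries, Spearman's rho between gene length and log2 fold change was 0.44 and Pearson's r 0.37. Over 12510 tested protein-coding genes rho was 0.04. The 15 tested members of at most 3000 bases had a median of -0.22, with 15 of 15 below 0, and the 25 longer ones a median of -0.07, with 16 below 0. Of the 4 members called lower, 3 (Prpf40b, Snrnp70 and Prpf31) were among the longer ones, and Snrpf was among the shorter. Over protein-coding genes tested, the medians of the same length classes were -0.04 and 0.00, with 1952 of 3633 and 4427 of 8877 below 0. Level went with the values too, with a rho of 0.36 between mean CPM and log2 fold change across members and 0.14 across protein-coding genes tested.

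**Figure D5:**
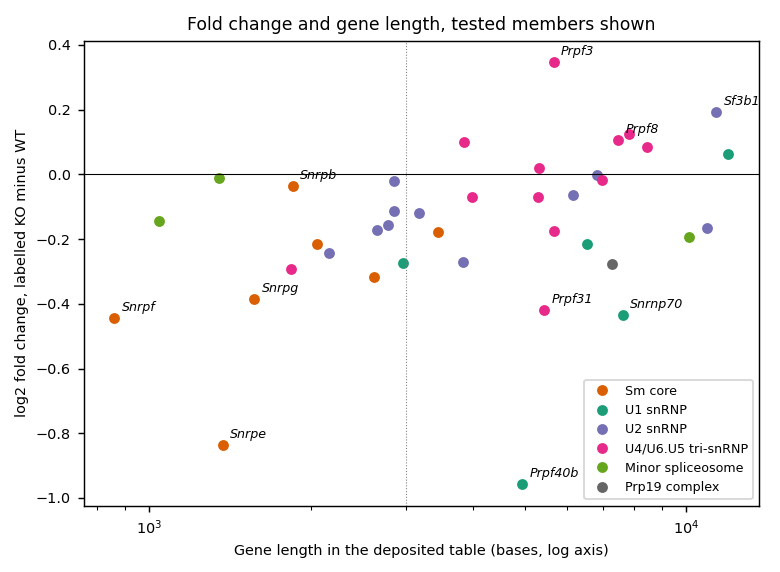
Log2 fold change, labelled KO minus WT, against gene length in the deposited table (log axis), 1 point for each of 39 tested members, colored by role, with a dotted line at 3000 bases. All 15 members to the left of the line lie below 0, and the members above 0 are all longer.

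By position, 5 of the 6 members on chromosome 7 were tested and all 5 had values below 0 (median -0.32), among them Snrnp70, Prpf31, Snrpd2 and Snrpa. The 591 genes of chromosome 7 with at least 16 CPM had a median of 0.03. All 4 members on chromosome 10 (median -0.23) and all 4 on chromosome 4 (median -0.11) also had values below 0, as did 31 of the 40 members tested. The 6 members on chromosome 2 had a median of 0.02.

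Other spliceosome genes, outside the naming rule, were read in the same fit from 6 lists with 88 genes, of which 87 were tested. Of these, 3 were lower, 1 was higher and 83 did not pass the test, with a median of -0.11. Over all genes tested, 3.12% were lower and 5.45% higher. The 8 genes of the LSm ring, the Sm-like ring that binds U6 or, in another form, decaying mRNA, had the lowest median at -0.48, and 8 of 8 lay below 0. Of them Lsm7 fell, from 25.5 ± 2.49 CPM in WT to 16.9 ± 0.828 CPM in KO (SD, n = 3 each), a log2 fold change of -0.60 ± 0.13 (SE) with an edgeR adjusted p of 0.0355, and 7 did not pass the test. Its values were 24.5, 28.3 and 23.6 CPM in WT libraries 25, 27 and 29 and 17.1, 17.5 and 15.9 CPM in KO libraries 31, 32 and 40, with no overlap. Of the 8, 7 had an unadjusted p under 0.05, and DESeq2 called 3. Of all genes tested, 12.4% were lower and 14.5% higher at that unadjusted p, and 51.2% had values below 0. DESeq2 called 5.77% lower and 8.51% higher of the genes it gave an adjusted p. Lsm3, Lsm5 and Lsm8 of this list lie on chromosome 6, where 393 genes with at least 16 CPM had a median of -0.26. Lsm7 lost its call in each fit with 1 library left out, with adjusted p from 0.0590 to 0.117.

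Among 15 tested genes that build Sm rings, Prmt5 fell and 14 did not pass the test (median -0.22). Prmt5, which encodes the methyltransferase that modifies SmB, SmD1 and SmD3, stood at 105.5 ± 10.6 CPM in WT and 75.6 ± 8.09 CPM in KO, a log2 fold change of -0.48 ± 0.12 (SE) with an edgeR adjusted p of 0.0442. Its libraries stood at 93.6, 108.5 and 114.2 CPM in WT and at 82.8, 77.2 and 66.9 CPM in KO, with no overlap. Prmt5 lost its call in each fit with 1 library left out, with adjusted p from 0.0503 (without WT library 25) to 0.139 (without KO library 40). Of the 15, 4 had an unadjusted p under 0.05, and DESeq2 called 2. Of all genes tested, 12.4% were lower and 14.5% higher at that unadjusted p, for this list and those that follow. DESeq2 called 5.77% lower and 8.51% higher of the genes it gave an adjusted p. In the list of the 3′ splice site and the early A complex, 0 of 16 passed by edgeR and by DESeq2 alike, 4 had an unadjusted p under 0.05, and the median was -0.12. Rbm17, a factor that competes with other splicing factors for the 3′ splice site, and Phf5a, a further SF3B subunit, had the smallest p, at -0.30 and -0.34 on the log2 scale (adjusted p by edgeR 0.0616 and 0.0695). In the list of other tri-snRNP and B complex genes, 0 of 15 passed by edgeR and by DESeq2, 3 had an unadjusted p under 0.05, and the median was -0.08. The smallest p in it were those of Eftud2, the U5 GTPase (log2 fold change -0.28, adjusted p = 0.123), and Txnl4a (-0.33, adjusted p = 0.175).

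Of 24 genes of the catalytic steps and the Prp19-associated complexes, Isy1 fell and 23 did not pass the test (median -0.03). Isy1 lies on chromosome 6 and stood at 42.8, 53.3 and 56.2 CPM in WT libraries 25, 27 and 29 and at 35.0, 35.4 and 31.7 CPM in KO (difference on the log2 scale -0.58 ± 0.13, SE, edgeR adjusted p = 0.0344), with WT library 25 again the lowest of its group. It kept its call without WT library 25 (adjusted p = 0.0262) and lost it without any other single library. Of 9 other minor spliceosome genes, Armc7 rose and 8 did not pass the test (median -0.02). Armc7 stood at 18.4, 16.01 and 15.95 CPM in WT and at 42.0, 28.4 and 35.2 CPM in KO, a log2 fold change of 1.07 ± 0.17 (SE) with an edgeR adjusted p of 0.0123. It stayed past the threshold in each of the 6 fits with 1 library left out, with a highest adjusted p of 0.0464 without KO library 40, but not against WT library 25 alone.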

How the data were processed

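RNA was measured in 6 libraries by sequencing after TRIzol extraction, per the labels' protocols. The authors deposited whole-number counts per gene, not normalized, and a gene length in bases. Salmon, limma, GRCm38 and mm10 are named per the submitters' processing notes, without a step. The counting program, strand use and filters are not stated in the sources used here, so reads shared with genes on the other strand (15 members overlap one) or with near-identical copies are uncertain. The labels call the libraries independent replicates.

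Members, lists, roles, motifs and tests were chosen with earlier results of these data known. Groups came from the sample titles. Genes were kept by edgeR's filterByExpr (at least 10 counts by its rule, at least 15 in total), so 15963 genes were tested. After TMM scaling, KO was compared with WT without covariates by the quasi-likelihood test of edgeR 4.0.16 (R 4.3.3) with robust shrinkage, Benjamini-Hochberg adjustment over all genes and a threshold of 0.05. SEs were derived from each fold change and the square root of F, and 95% intervals use the test's degrees of freedom. CPM are TMM-scaled. On simulated data, the script recovered 7 of 50 genes changed 1.5-fold, 63 of 100 changed 2-fold and 44 of 50 changed 4-fold. A member that did not pass the test may therefore still differ, by 2-fold as well as by 1.5-fold. The simulation changed far fewer genes than were called in the data, and none at the lowest levels, so recovery in the data may differ. Alternatives were RLE, upper-quartile and total-count scaling, no filter, at least 1 CPM in 3 libraries, no robust shrinkage, DESeq2 1.42.0, limma-voom (limma 3.58.1), each library left out, and WT libraries 27 and 29 left out. Every member could be named by the rule, but 1 member and 1 marker gene are counted in the totals and not reported here. Values in every library went to members past the threshold, Sm genes, the most abundant member per role, the 3 largest rises and falls, and Rbm5 (as mean and SD). Of each pathway list, called members were named, or the 2 with the smallest p. Values in every library of Snrpg's neighbor on chromosome 6, Snrnp27, and of called pathway genes were added after their values were seen.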

Additional observations from a re-analysis of the deposited data

How the results depend on the processing

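With 3 libraries a group, most members' fold changes lie within the spread between libraries. The members' 4 calls became 8 with total-count scaling, 2 without robust shrinkage and 0 against WT library 25 alone, and 0 to 2 with 1 library left out. All genes called went from 1368 to 2484 with DESeq2, 453 against WT library 25 alone and 347 to 1227 with 1 library left out. Of the other spliceosome genes, 4 calls became 7 with upper-quartile factors and with DESeq2, 9 with total counts and without a filter, 0 against WT library 25 alone, and 1 to 3 with 1 library left out. The members' median of -0.15 was -0.19 with upper-quartile factors, -0.27 with total counts, -0.066 against WT library 25 alone and -0.17 to -0.082 with 1 library left out. The medians of all genes under the first 2 of these were -0.055 and -0.13.

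Of 40 tested members, 29 kept their sign in all 15 alternatives and 11, all near 0 and uncalled, did not. Against WT library 25 alone, Snrpb turned to 0.037, Prpf38b to 0.018, Sf3b2 to 0.031 and Prpf4b to -0.026. With RLE factors Sf3b2 turned to 0.0036. With upper-quartile factors Prpf18 turned to -0.026. With total counts Prpf18, Prpf39, Prpf4b, Prpf6 and Prpf8 turned to -0.10, -0.064, -0.042, -0.024 and -0.014. With 1 library left out the ranges were -0.082 to 0.024 (Snrpb), -0.099 to 0.044 (Sf3b6), -0.063 to 0.062 (Prpf38b), -0.12 to 0.048 (Snrnp35), -0.051 to 0.039 (Sf3b2) and -0.055 to 0.057 (Prpf18). Apart from scaling and fewer libraries, the cause was not tested. No paired analysis was possible because the groups share no replicate numbers.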
